A study of Mus musculus with 10 samples.

Results

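Mitochondrial ribosomal proteins are encoded in the nucleus, made in the cytosol and imported into mitochondria. There they assemble with mitochondrially encoded ribosomal RNA into the ribosome that translates the messenger RNAs of the mitochondrial genome. The genes examined here were all rows whose symbol is Mrpl (large subunit) or Mrps (small subunit) followed by a digit and whose level reached 1 TPM (the length-scaled share of a gene among all transcripts) in at least 2 libraries. They were 78 genes of the 21853 protein-coding genes listed, and of the 12060 genes that passed the same filter. The rule itself used no difference between lines, but the family was chosen with earlier results of these data known. All 78 passed, since the lowest value of any of them in any library was 4.76 TPM.

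The libraries were 10 bulk RNA-seq libraries of mouse J1 embryonic stem cells, with 2 libraries in each of 5 lines. Naive cells were wild type (WT) and AKO cells were labelled AMPK KO, the energy-sensing kinase, whose catalytic subunit gene Prkaa1 was targeted. GKO cells were labelled GYS1 KO, the glycogen synthase that makes glycogen, and DKO cells carried both labels (AMPK, GYS1 KO). These 4 lines shared the naive culture, with serum, mouse leukemia inhibitory factor, the MEK inhibitor PD0325901 and the GSK3 inhibitor CHIR99021 on gelatin. Primed cells (PJ1) were WT cells in epiblast stem cell medium with bFgf on Matrigel, so genotype was shared with naive cells and the medium was not. By the study's methods the epiblast stem cell medium also holds Activin A, and KnockOut Serum Replacement instead of serum. Knockouts were made with CRISPR/Cas9. Colonies were picked for the Gys1 targeting and RFP-positive cells were sorted for the Prkaa1 targeting in J1. The sources used here do not say which clone each library came from, whether DKO was made from the GKO line, or whether the 2 libraries of a line were separate cultures. The p-values therefore measure only the spread between libraries of a line, which may be technical.

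In the mitochondrial ribosome the large subunit forms peptide bonds and holds the exit tunnel, and the small subunit reads the codon. Many of its proteins have bacterial relatives and the rest arose after the bacterial ancestor was taken up. Its products are subunits of the respiratory chain and of the ATP synthase, whose other subunits come from the nucleus. Naive mouse embryonic stem cells use both oxidative phosphorylation and glycolysis, and primed cells rely more on glycolysis. By these descents the members comprised 30 large-subunit proteins with a bacterial relative, 21 mitochondria-specific large-subunit proteins, 15 small-subunit proteins with a bacterial relative and 11 mitochondria-specific small-subunit proteins. Mrps30 and Mrps18a, named for the small subunit, sit in the large subunit and were counted there. The remaining gene, Mrps36, is now assigned to the ketoglutarate dehydrogenase complex and was kept apart.

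The members were well expressed. Naive means ran from 5.86 TPM for Mrpl57 to 173 TPM for Mrpl34, with a median of 51.2 TPM and quartiles of 31.9 and 70.2 TPM. TPM is per transcript length, so these levels may be compared between genes. The highest were Mrpl34 (177 and 170 TPM in the 2 naive libraries), Mrpl52 (173 and 171), Mrpl12 (140 and 133), Mrpl20 (128 and 122) and Mrpl18 (125 and 121). Mrpl34 and Mrpl52 overlapped, as did Mrpl20 and Mrpl18, while Mrpl12 lay between both pairs without overlap. Mrpl12 forms the stalk that binds translation factors. The lowest were Mrpl57 (6.12 and 5.60 TPM), Mrpl32 (7.29 and 7.85), Mrps25 (8.58 and 8.88), Mrpl48 (10.3 and 10.2) and Mrpl47 (11.7 and 11.3), none of which overlapped its neighbour in that order.

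Summed over the 78 members, the level was 4406 and 4310 TPM in naive, 4399 and 4322 in AKO, 3895 and 4148 in DKO, 3655 and 3773 in GKO, and 3789 and 3660 in primed libraries. AKO overlapped naive. The DKO, GKO and primed libraries lay below both, and GKO and primed overlapped each other. Relative to the naive mean the sum was 0.852 in GKO, 0.855 in primed, 0.923 in DKO and 1.00 in AKO. As a share of the TPM of all listed genes the members took 0.762% and 0.763% in naive, 0.760% and 0.749% in AKO, 0.733% and 0.742% in DKO, 0.706% and 0.710% in GKO, and 0.740% and 0.732% in primed libraries. On this scale AKO lay just below naive, DKO and primed overlapped, and GKO was lowest. The listed sum itself ran from 500162 to 578952 TPM. The ratio of summed large-subunit to small-subunit TPM stayed between 2.52 and 2.61 in all 10 libraries. In bulk RNA, fewer cells of a type and less RNA per cell cannot be told apart.

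**Figure D1:**
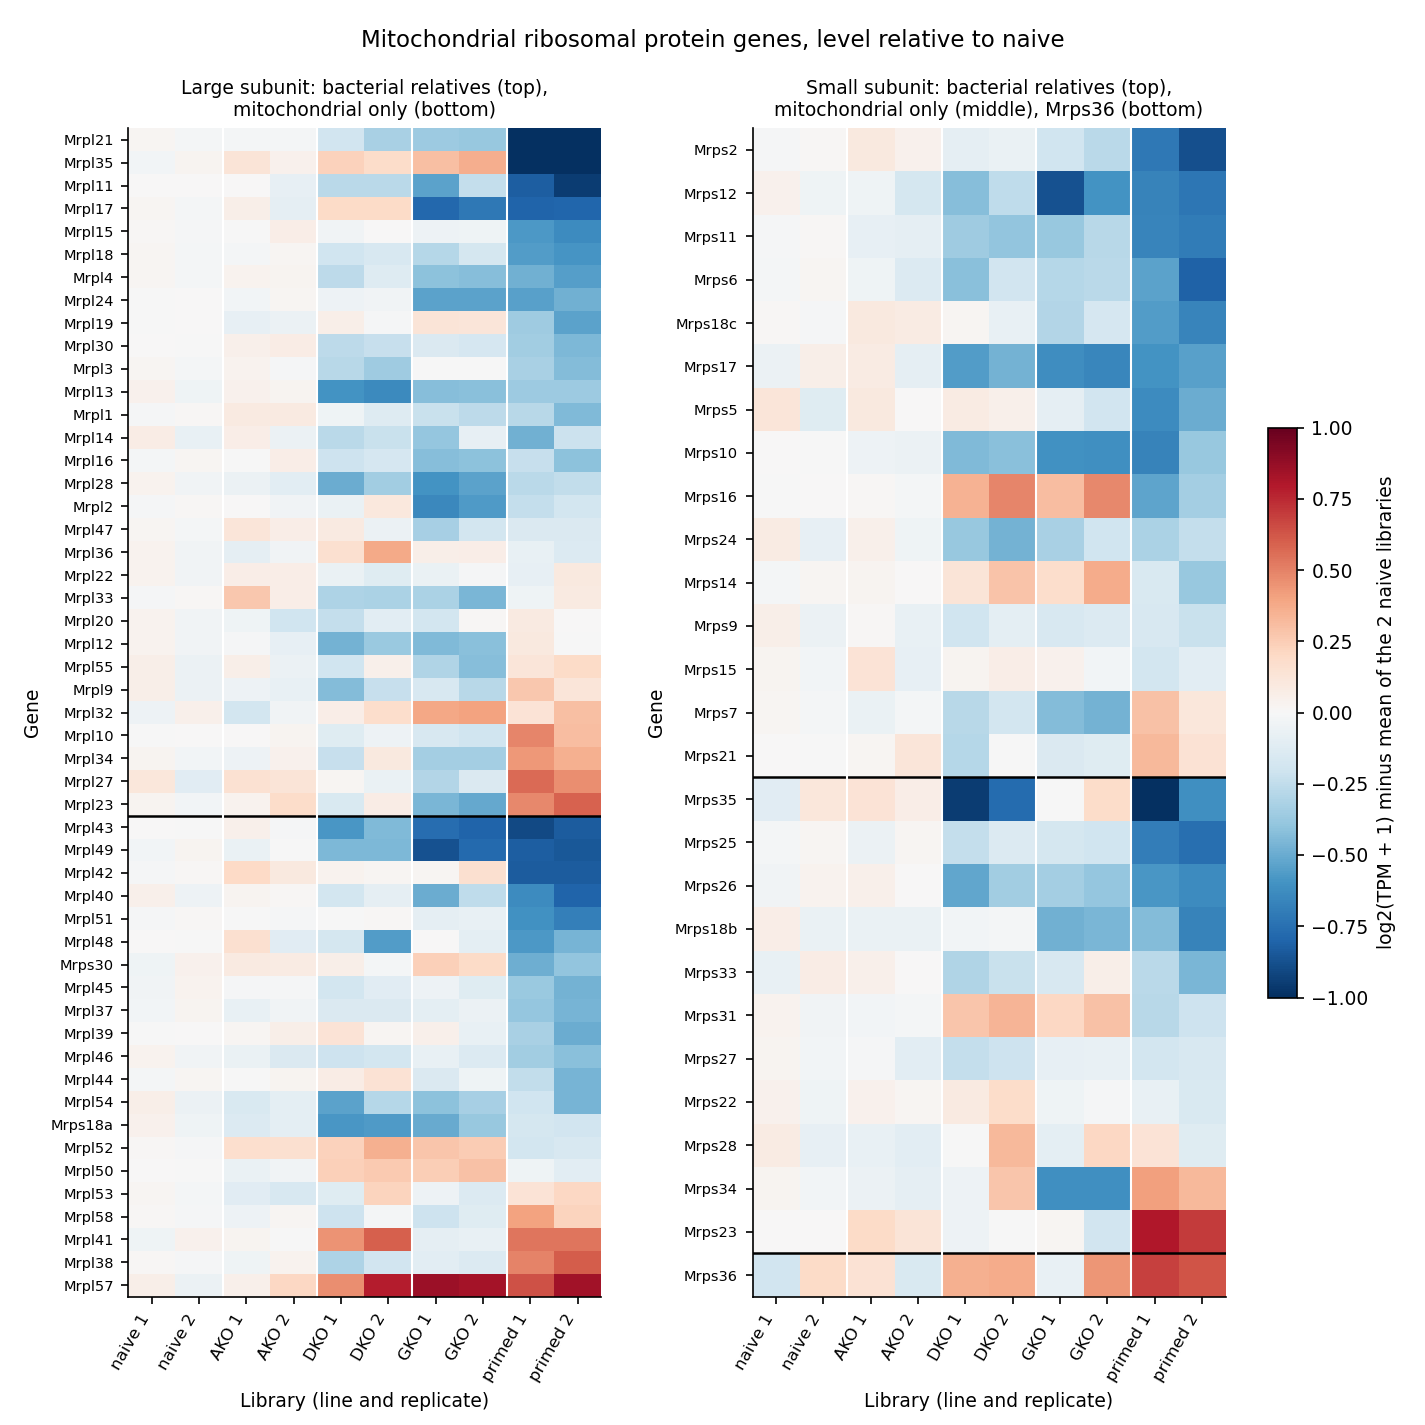
Each row is a member and each column a library; colour is log2(TPM + 1) minus the mean of the 2 naive libraries, saturating at 1 in either direction, with rows grouped by class and ordered by the primed change. AKO columns are near the naive level throughout, whereas GKO, DKO and primed columns hold more lower than higher values.

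The targeted genes and pluripotency markers were checked first. Prkaa1 was at 15.5 and 16.6 TPM in naive, 7.24 and 6.94 in AKO, 2.30 and 2.04 in DKO, 12.2 and 12 in GKO, and 13.4 and 13.7 in primed libraries. Gys1 was at 11.5 and 10.8 TPM in naive, 9.70 and 9.98 in GKO, and 12.1 and 11.7 in DKO libraries. The RNA level of Gys1 thus does not check the GKO and DKO labels, since an indel can leave the transcript in place. The summed level of 10 naive markers was 1741 to 1780 TPM in naive, 1944 to 2026 in GKO and 170 to 180 in primed libraries. That of 9 primed markers was 67.4 to 69.2, 89.6 to 89.7 and 516 to 538 TPM, respectively. In GKO 2 of the 8 tested primed markers were called higher and 1 lower. Most of the rise in their sum came from Zic2 (14.4 and 13.7 TPM in naive, 33.7 and 33.3 in GKO). Otx2 was at 5.71 and 6.1 TPM in naive and 5.28 and 6.09 in GKO libraries. A 6-gene fibroblast list summed to 3.15 to 3.76 TPM in naive, 9.54 to 10.7 in GKO and 9.57 to 15.8 in primed libraries, and 3 of its 4 tested genes were called higher in each of these 2 lines. In GKO these included Thy1 (3 and 2.44 TPM in naive, 7.14 and 8.48 in GKO) and Pdgfrb. Thy1 made up most of the GKO sum. In GKO libraries Col1a2 was at 0.086 and 0.014 TPM, Col3a1 at 0.006 and 0, and Dcn at 0 in both. In primed cells Col1a2 was at 4.18 and 4.84 TPM, while Dcn was at 0 and was near 0 in naive libraries. A 5-gene trophectoderm list summed to 11.2 to 11.4 TPM in naive, 23.6 to 23.9 in GKO and 19.7 to 31.8 in primed libraries. In primed cells its members went both ways, with 2 of 3 tested genes called higher (Krt8 and Krt18) and 1 lower. The lower one was Cdx2, at 2.57 and 2.66 TPM in naive and 0.502 and 0.032 in primed libraries. For 6 mesendoderm genes the sums in naive, GKO and primed libraries were 36.5 to 37.4, 36.3 to 38.1 and 3.2 to 25 TPM. For 5 primitive endoderm genes they were 1.56 to 1.74, 2.13 to 2.23 and 2.56 to 4.13 TPM. The 2 primed libraries differed in T (8.97 and 0.786 TPM), Eomes (7.44 and 1.61), Fgf5 (10.7 and 0.447) and Fgf8 (20.6 and 1.36). Their Otx2 values were 53 and 55.9 TPM. In DKO the naive, primed, fibroblast and trophectoderm sums were 1971 to 1984, 61.2 to 63.3, 3.36 to 3.42 and 19.9 to 22.3 TPM, and all 3 tested trophectoderm genes were called higher in DKO and in GKO. In DKO the mesendoderm and primitive endoderm sums were 22.5 to 23.7 and 0.997 to 1.29 TPM. The part of these marker differences in the member changes was not tested.

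Promoters were read for 69 of the 78 members from RefSeq (GRCm38.p6), each from 250 bases before to 50 bases after the start. Letters of known binding motifs were searched on both strands. The NRF1 core GCGCATGCG, of a factor known for nuclear genes of mitochondria, was in 10.1% of member promoters and 1.95% of the promoters of all 27025 genes in the table. The ETS letters CCGGAAG were in 37.7% against 9.93%, and the YY1 letters AAGATGGCG in 11.6% against 1.64%. Shares were nearer for SP1 letters GGGCGG (49.3% and 38.2%), NF-Y letters CCAAT (39.1% and 41.1%), E-box letters CACGTG (7.25% and 8.09%) and CREB letters TGACGTCA (2.90% and 2.03%). Member promoters also had a higher median GC content (58.7% against 52.7%). SP1 and ETS letters can overlap, as they do at the start of the Mrpl17 window. A match is a description, not a binding site. The promoters below belong to members chosen among those with large changes, 5′ to 3′, with matches in capitals. They lie at chr7:105811038-105811337 (minus strand) for Mrpl17, chr7:28741772-28742071 (minus) for Mrps12, chr19:3282792-3283091 (plus) for Mrpl21, chr11:88204138-88204437 (plus) for Mrps23 and chr14:57825989-57826288 (plus) for Mrpl57.
Mrpl17: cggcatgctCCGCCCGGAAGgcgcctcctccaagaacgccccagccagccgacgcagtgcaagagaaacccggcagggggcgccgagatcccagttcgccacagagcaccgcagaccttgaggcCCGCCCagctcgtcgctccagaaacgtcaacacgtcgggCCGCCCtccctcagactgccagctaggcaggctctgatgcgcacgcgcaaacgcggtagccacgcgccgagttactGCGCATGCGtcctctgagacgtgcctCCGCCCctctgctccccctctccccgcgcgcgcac
Mrps12: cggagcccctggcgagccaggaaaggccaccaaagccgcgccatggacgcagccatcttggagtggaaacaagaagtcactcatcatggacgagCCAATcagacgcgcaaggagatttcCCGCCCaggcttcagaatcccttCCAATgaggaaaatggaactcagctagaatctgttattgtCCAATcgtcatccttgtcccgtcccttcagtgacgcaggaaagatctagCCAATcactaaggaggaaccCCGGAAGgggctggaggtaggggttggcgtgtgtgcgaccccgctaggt
Mrpl21: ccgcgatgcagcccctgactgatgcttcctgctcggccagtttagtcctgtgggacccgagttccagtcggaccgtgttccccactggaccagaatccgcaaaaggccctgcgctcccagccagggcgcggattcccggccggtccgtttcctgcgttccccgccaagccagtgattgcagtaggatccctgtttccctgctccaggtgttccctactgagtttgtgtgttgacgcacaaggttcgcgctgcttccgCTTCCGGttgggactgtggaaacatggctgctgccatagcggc
Mrps23: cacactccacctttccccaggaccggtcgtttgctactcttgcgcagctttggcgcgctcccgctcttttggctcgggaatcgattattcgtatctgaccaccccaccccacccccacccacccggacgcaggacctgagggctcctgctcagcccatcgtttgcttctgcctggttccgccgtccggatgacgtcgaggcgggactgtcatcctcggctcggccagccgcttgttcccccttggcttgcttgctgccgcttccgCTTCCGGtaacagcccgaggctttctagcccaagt
Mrpl57: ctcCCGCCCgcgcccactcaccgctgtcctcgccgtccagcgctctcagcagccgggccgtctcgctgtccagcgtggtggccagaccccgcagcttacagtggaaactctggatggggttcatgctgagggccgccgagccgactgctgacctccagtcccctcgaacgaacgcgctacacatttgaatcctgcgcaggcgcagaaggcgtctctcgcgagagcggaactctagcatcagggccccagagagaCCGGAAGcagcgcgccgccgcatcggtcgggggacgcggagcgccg
Mrpl17 held 1 NRF1 core, 1 ETS and 4 SP1 matches, and Mrps12 held 4 CCAAT, 1 ETS and 1 SP1 match. Mrpl21 and Mrps23, which moved in opposite directions in primed cells, each held a single ETS match. Every promoter shown above held ETS letters, against 37.7% of member promoters. That of Mrpl49, the member with the largest fall in GKO, is not shown and held only SP1 and CREB letters. The 3 windows of Mrpl2, also not shown, held only E-box, SP1 and NF-Y letters.

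Mrps11 and Mrpl46 are divergent neighbours and share 141 bases of promoter window. The Mrps11 window is shown because a pair of members starts from it, at chr7:78782881-78783180 (plus), with the shared bases in capitals.
Mrps11: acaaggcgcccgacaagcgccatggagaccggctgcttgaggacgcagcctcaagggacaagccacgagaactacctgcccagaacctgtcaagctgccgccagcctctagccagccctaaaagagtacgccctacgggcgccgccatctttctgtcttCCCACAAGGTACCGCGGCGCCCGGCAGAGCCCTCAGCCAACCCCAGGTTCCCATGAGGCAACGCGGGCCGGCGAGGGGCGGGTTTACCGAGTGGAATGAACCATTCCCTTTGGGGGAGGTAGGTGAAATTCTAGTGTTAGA
In GKO against naive the 2 genes were at −0.33 (adjusted p = 0.000741) and −0.11 (adjusted p = 0.112) on the log2 scale. In primed cells both fell, by 0.68 and 0.39.

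The GKO line was compared with naive cells to ask what loss of glycogen synthase does under naive culture. All changes are differences of log2(TPM + 1) ± SE from limma, fitted over the 12060 genes with Benjamini-Hochberg adjustment, and called at an adjusted p under 0.05. The pseudocount of 1 understates the change of low genes. Of the 78 members 38 were lower, 9 were higher and 31 did not pass. Thus 60.3% were called, near the 51.7% of all tested genes. By direction, 48.7% of members were lower against 27.1% of all genes and 11.5% were higher against 24.7%. The median member change was −0.17 and that of all genes −0.01. With libraries scaled to an equal sum of listed genes the median of all genes moved to 0.09 and that of the members to −0.05. The split was then 27 lower and 12 higher, beside 17.4% and 33.1% of all genes. Among tested genes with a mean of at least 5 TPM over all libraries, which include every member, the median was −0.06.

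**Figure D2:**
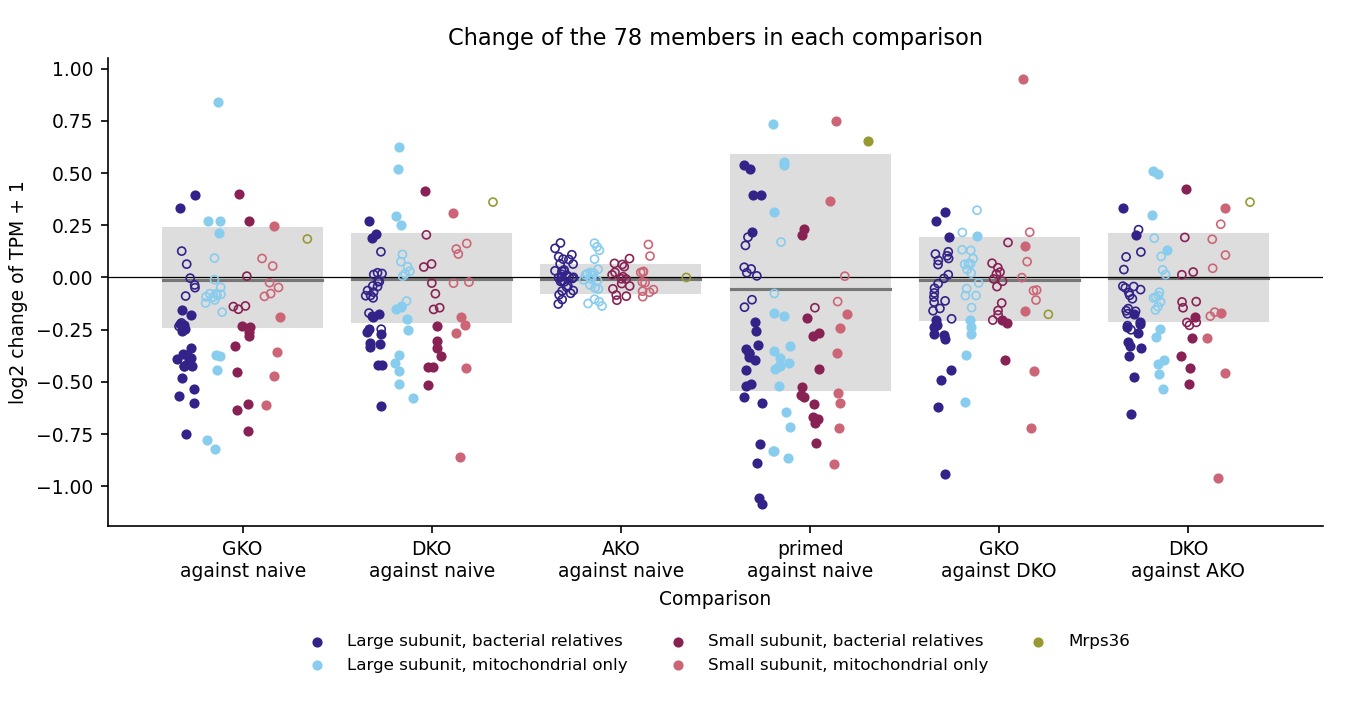
Points are the log2 changes of the 78 members in each comparison, by class, filled where the adjusted p is under 0.05; the grey box spans the quartiles of all tested genes and its line is their median. In GKO against naive most members lie below the median of all genes, and in AKO against naive no point is filled.

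Large-subunit proteins with a bacterial relative fell most often, with 20 of 30 lower and 2 higher and a median of −0.25. Small-subunit proteins with a bacterial relative had 9 of 15 lower and 2 higher (median −0.24). Of the mitochondria-specific proteins, 5 of 21 in the large subunit were lower and 4 higher (median −0.08), and 4 of 11 in the small subunit were lower and 1 higher (median −0.08). The difference between these classes was not tested.

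Mrpl49, a mitochondria-specific large-subunit protein, was at 60 and 62.5 TPM in naive and 33.1 and 35.4 in GKO libraries. Mrpl43, of the same class, was at 77.7 and 76.9 in naive and 45.2 and 44.0 in GKO libraries. Both GKO values lay far below both naive values, and the changes were −0.82 ± 0.05 (adjusted p = 4.99e-06) and −0.78 ± 0.06 (adjusted p = 1.39e-05). Mrpl17, a bacterial-type protein of the large subunit, was at 95.6 and 93.3 TPM in naive and 54.3 and 57.3 in GKO libraries (−0.75 ± 0.05). Mrps12, which lies at the decoding centre, was at 98.3 and 92.7 TPM in naive and 51.7 and 62.7 in GKO libraries (−0.74 ± 0.09). The groups did not overlap for either gene. Mrps17 (72.6 and 79.0 TPM in naive, 48.9 and 47.9 in GKO), Mrps10 (61.3 and 60.9, 39.8 and 39.6) and Mrps34 (52.2 and 50.2, 33.2 and 33.1) are small-subunit proteins. They fell by 0.64, 0.61 and 0.61 with no overlap. Mrpl2, a protein near the peptidyl transferase centre, was at 97.6 and 99.3 TPM in naive and 62.7 and 66.3 in GKO libraries and fell by 0.60 ± 0.06.

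Higher in GKO were Mrpl57, at 6.12 and 5.60 TPM in naive and 11.4 and 11.2 in GKO libraries (0.84 ± 0.12, adjusted p = 0.000386), and Mrps16, at 15.7 and 15.8 against 19.8 and 22.4 TPM (0.40 ± 0.08). Mrpl52 was at 173 and 171 against 209 and 205 TPM (0.27 ± 0.05). The groups did not overlap for these 3 genes, all on chromosome 14. Mrpl32 (0.39), Mrpl35 (0.33), Mrpl50 (0.27), Mrps14 (0.27) and Mrps31 (0.25) also rose. Of 20 other tested genes within 5 Mb of Mrpl32, 16 were higher and 1 lower in GKO (median 0.33). The Mrps14 call was lost without naive replicate 1 (adjusted p = 0.124), naive replicate 2 (0.0864) or GKO replicate 2 (0.201).

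**Figure D3:**
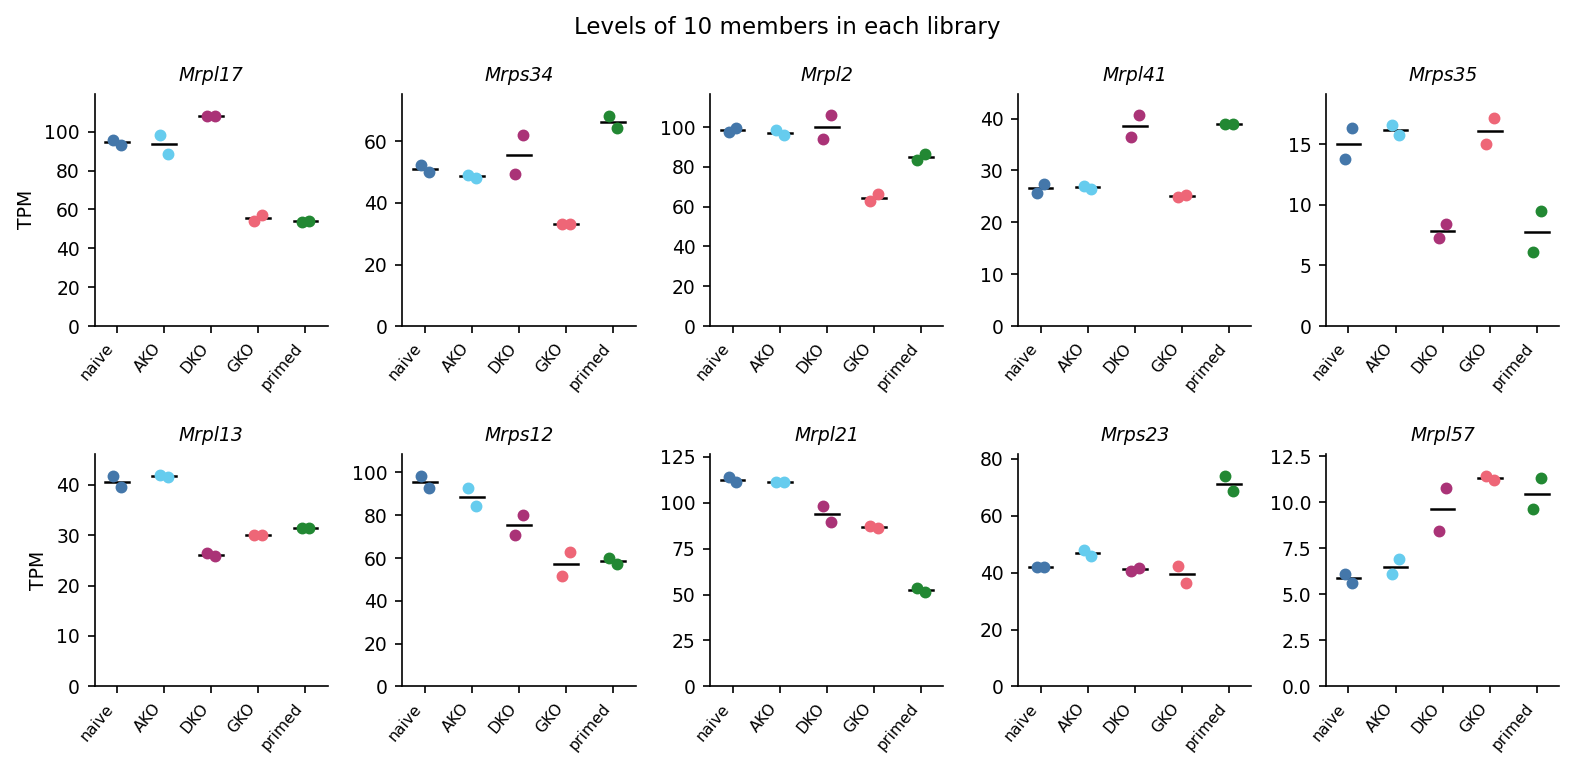
TPM of 10 members in each library, with points for libraries and bars for the mean of the 2 libraries of a line. Mrpl17 and Mrpl2 are low in GKO and not in DKO, Mrps35 is low in DKO and primed, and Mrps23 is high in primed cells.

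The DKO line was compared with naive cells in the same way. Of the members 33 were lower, 9 higher and 36 did not pass, which is 53.8% called against 46.0% of all tested genes. The shares lower were 42.3% and 24.3%, and those higher 11.5% and 21.7%. The median member change was −0.11 and that of all genes −0.01. The split was 22 lower and 11 higher with equal sums of listed genes (18% and 25.8% of all genes), and the count called was 26 without naive replicate 1. By class, 12 of 30 and 9 of 21 large-subunit members and 7 of 15 and 5 of 11 small-subunit members were lower, with bacterial relatives given first in each pair.

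Mrps35, a mitochondria-specific small-subunit protein, was at 13.8 and 16.3 TPM in naive and 7.30 and 8.38 in DKO libraries (−0.86 ± 0.16, adjusted p = 0.00273). Mrpl13, a bacterial-type large-subunit protein, was at 41.8 and 39.5 against 26.5 and 25.8 TPM (−0.62 ± 0.04, adjusted p = 1.83e-05). Both were separate from the naive libraries. Mrps18a (−0.58), Mrps17 (−0.51) and Mrpl43 (−0.51) were next. Higher were Mrpl57 at 8.46 and 10.8 TPM (0.63 ± 0.12) and Mrpl41, a mitochondria-specific large-subunit protein, at 36.5 and 40.7 against 25.7 and 27.4 TPM in naive libraries (0.52 ± 0.06). Mrps16 (0.42), Mrps31 (0.31) and Mrpl52 (0.30) also rose.

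In AKO against naive no member passed, as for nearly all genes (0.224% called, of which 0.0663% of all genes higher and 0.158% lower). At an unadjusted p under 0.05 there were 2 of 78 members and 1231 of 12060 genes. Changes ran from −0.14 to 0.17 with a median of 0.00. A miss of the threshold does not show equal levels, and the widest interval is for Mrps36, whose SE was 0.17.

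The GYS1 KO was compared with the line of the same AMPK label, GKO against naive and DKO against AKO, which share no library. Prkaa1 RNA was not equal in the second pair, at 7.24 and 6.94 TPM in AKO and 2.3 and 2.04 in DKO. Its part in the changes was not tested. In DKO against AKO 26 members were lower and 8 higher (33.3% and 10.3%, with 43.6% called), against 23.9%, 22.4% and 46.3% of all tested genes. With equal sums of listed genes the split was 17 lower and 16 higher (16.7% and 27.8% of all genes). The median member change was −0.14. The lowest were Mrps35 (−0.96), Mrpl13 (−0.65), Mrpl43 (−0.53), Mrps17 (−0.51) and Mrpl33 (−0.48), and the highest Mrpl41 (0.51), Mrpl57 (0.50), Mrps16 (0.42), Mrps31 (0.33) and Mrpl36 (0.33). The Mrpl57 call was lost without AKO replicate 1 (adjusted p = 0.0587) or DKO replicate 2 (0.0566). The 2 comparisons had the same sign for 64 of 78 members (82.1%), against 69.4% of all tested genes. Across members, which are not independent replicates and share libraries, Pearson's r was 0.53 and Spearman's rho 0.53. Over all genes they were 0.57 and 0.53. Called in both were 26 members, 55.3% of those called in GKO and 76.5% of those called in DKO against AKO, and 25 of these moved the same way. Over all genes the shares were 58.8% and 65.7%, with 3214 of 3672 moving the same way. The exception among the members was Mrpl17, lower in GKO and at 108 and 108 TPM in DKO against 98.5 and 88.6 in AKO libraries (0.21 ± 0.05).

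The difference between these 2 changes, an interaction term, was called for 12 members, 8 lower and 4 higher. That is 15.4% of members (10.3% lower and 5.13% higher) against 25.8% of all genes (13.1% and 12.8%). Without DKO replicate 1 it was called for 20, and without primed replicate 1 or 2 for 21 or 22. The most negative were Mrpl17 (−0.96 ± 0.08, adjusted p = 0.000122), Mrps34 (−0.79 ± 0.13, adjusted p = 0.00275) and Mrpl2 (−0.64 ± 0.08, adjusted p = 0.001). These 3 fell in GKO and not in DKO. Mrps34 was at 49.3 and 62.2 TPM in DKO libraries, on either side of the naive values, and Mrpl2 at 94.1 and 106 TPM, also on either side. The most positive were Mrps35 (1.05 ± 0.23, adjusted p = 0.0113), Mrpl3 (0.32) and Mrps30 (0.29). The Mrps30 call was lost after centring within chromosomes (adjusted p = 0.0717). The calls of Mrpl3 and Mrps30 were lost when single libraries were left out, with adjusted p up to 0.0608 and 0.107.

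GKO against DKO compared AMPK states on the GYS1 KO label. It shares the GKO libraries with the first comparison. Lower in GKO were 21 members and higher 6 (26.9% and 7.69%, with 34.6% called), against 22.4%, 21.2% and 43.5% of all genes. With equal sums of listed genes the split was 14 lower and 12 higher (16.9% and 24.3% of all genes), and the count called fell to 15 without DKO replicate 2 and to 16 without GKO replicate 1. Mrpl17 (−0.94 ± 0.05), Mrps34 (−0.72), Mrpl2 (−0.62), Mrpl41 (−0.60) and Mrpl24 (−0.49) were lower in GKO. Mrpl24, at the tunnel exit, was at 58.5 and 58.6 TPM in GKO and 82.2 and 83.3 in DKO libraries, beside 85.1 and 85.5 in naive libraries, so DKO was near naive. Mrps35 was higher in GKO (0.95 ± 0.16), at 15.0 and 17.2 TPM. Mrpl3 (0.31), Mrpl32 (0.27), Mrps30 (0.20) and Mrpl13 (0.19) were also higher. The last 3 lost their calls when a library was left out, with adjusted p without DKO replicate 2 of 0.052 for Mrpl32, 0.115 for Mrps30 and 0.0526 for Mrpl13. Centring within chromosomes also ended the calls of Mrpl32 (adjusted p = 0.055) and Mrps30 (adjusted p = 0.119).

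Primed cells were compared with naive cells to describe the members across pluripotency states. Of the members 51 were lower, 14 higher and 13 did not pass, which is 83.3% called against 80.0% of all tested genes. The shares lower were 65.4% and 42.5%, and those higher 17.9% and 37.4%. The median member change was −0.35 against −0.05 for all genes and −0.17 for genes with a mean of at least 5 TPM. With equal sums of listed genes the medians were −0.18 and 0.10, and 39 members were lower and 20 higher (33.3% and 44.3% of all genes). Small-subunit proteins with a bacterial relative had 12 of 15 lower (median −0.52). The other counts were 17 of 30 and 15 of 21 in the large subunit and 7 of 11 mitochondria-specific small-subunit proteins.

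Mrpl21, a bacterial-type large-subunit protein, was at 114 and 111 TPM in naive and 53.4 and 51.4 in primed libraries (−1.09 ± 0.05, adjusted p = 7.62e-08). Mrpl35, of the same class, was at 25.2 and 26.1 against 11.9 and 11.7 TPM (−1.06 ± 0.05, adjusted p = 1.01e-07). Both primed values lay far below both naive values for each gene. Mrpl35 had moved the other way in GKO. Of 33 other tested genes within 5 Mb of Mrpl35 on chromosome 6, 25 were lower and 6 higher in primed cells (median −0.77). Mrps35 (6.09 and 9.46 TPM in primed, −0.89), Mrpl11 (−0.89), Mrpl43 (−0.86), Mrpl49 (−0.83), Mrpl42 (−0.83) and Mrpl17 (53.7 and 54.2 TPM, −0.80) were also lower. Mrpl42 was at 84.2 and 85.9 TPM in naive, 86.3 and 95.4 in GKO and 47.4 and 47.4 in primed libraries, so only its primed libraries were below naive.

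The member with the largest rise from naive to primed cells was Mrps23, a mitochondria-specific small-subunit protein, at 73.8 and 68.6 TPM against 41.9 and 41.9 in naive libraries (0.75 ± 0.07, adjusted p = 8.09e-06). Its GKO values of 42.4 and 36.5 TPM lay on either side of naive. Mrpl57 (0.74), Mrpl38 (0.55), Mrpl23 (0.54), Mrpl41 (0.54), Mrpl27 (0.52) and Mrpl34 (0.40) also rose. Mrps36 was at 21.1 and 20.3 TPM against 11.1 and 14.7 (0.65 ± 0.17, adjusted p = 0.00694), and the call was lost without naive replicate 1 (0.47, adjusted p = 0.0613).

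The Mrps18 paralogs sit in different places of the ribosome. Mrps18c is the counterpart of the bacterial protein, Mrps18b another small-subunit protein and Mrps18a a large-subunit protein. Mrps18a was at 50.3 and 47.1 TPM in naive, 32.1 and 32.5 in DKO, 34.0 and 37.1 in GKO and 42.9 and 42.6 in primed libraries. Mrps18b was at 65.1 and 59.6, 61.2 and 61.5, 44.4 and 45.0, and 45.9 and 38.8 TPM, and Mrps18c at 56.2 and 55.3, 56.5 and 53.0, 45.3 and 49.5, and 37.5 and 35.0 TPM. All 3 were called lower in GKO (−0.44, −0.47 and −0.23) and in primed cells (−0.18, −0.55 and −0.61). In DKO Mrps18a fell by 0.58, while Mrps18b and Mrps18c were at −0.02 and −0.03 and did not pass. The interaction passed for Mrps18b (−0.51 ± 0.10, adjusted p = 0.00794) and not for Mrps18a (0.02) or Mrps18c (−0.11).

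Mrpl12 was at 140 and 133 TPM in naive, 98.1 and 105 in DKO, 100 and 102 in GKO and 146 and 136 in primed libraries. It fell by 0.42 in both GYS1 KO lines and was at 0.05 in primed cells (adjusted p = 0.434). Mrpl58, a peptidyl-tRNA hydrolase built into the large subunit, was at 41.6 and 41.1 TPM in naive, 35.6 and 37.9 in GKO and 55 and 48.3 in primed libraries. It rose by 0.31 in primed cells and was at −0.17 in GKO (adjusted p = 0.105). Other tested genes within 5 Mb of Mrpl58 on chromosome 11 also had a primed median of 0.31. Mrps30 was at 27.3 and 29.0 TPM in naive, 33.4 and 32.2 in GKO and 19.8 and 21.2 in primed libraries, which is higher in GKO (0.22) and lower in primed cells (−0.44).

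Member changes were set beside the changes of other genes on their chromosomes, since whole chromosomes differed between lines. On chromosome 19 the median of 408 tested genes was −0.40 in GKO, −0.27 in DKO and −0.45 in primed cells, each against naive, and 0.00 in AKO. All 5 members there (Mrpl49, Mrpl43, Mrpl16, Mrpl11 and Mrpl21) were lower in these 3 comparisons. On chromosome 14 the median of 406 genes was 0.47, 0.37 and 0.54, and −0.01 in AKO. The 3 members there (Mrps16, Mrpl52 and Mrpl57) were higher in GKO and DKO. Minus that median Mrpl57 was at 0.37 in GKO, 0.26 in DKO and 0.20 in primed cells. Mrps16 was at −0.07 and Mrpl52 at −0.20 in GKO. In primed cells these 2 genes were called lower (−0.44 and −0.17) although the chromosome was higher. On chromosome 11 the median in primed cells was 0.30, and 6 of 11 members rose and 2 fell. Only 5 of the 11 lay above that median. Mrps23, Mrpl38, Mrpl27 and Mrpl58 lie on this chromosome. The primed medians of tested genes within 5 Mb of them were 0.36, 0.32, 0.38 and 0.31, respectively. On chromosome 6 the primed median of 565 genes was −0.39, and 6 of 7 members were lower. Whether chromosome number differed between the lines was not tested.

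In a further fit each library was centred on the median level of the tested genes of each chromosome, which took 0.56 in GKO, 0.46 in DKO and 0.64 in primed cells from the changes on chromosome 14. In that fit 34 members were lower and 5 higher in GKO, against 22.9% and 24.0% of all genes. The counts were 24 and 5 in DKO (23.8% and 19.2% of all genes) and 50 and 9 in primed cells (43.1% and 34.6%). Mrpl57 was then at 0.29 in GKO (adjusted p = 0.0799), 0.16 in DKO (adjusted p = 0.311) and 0.10 in primed cells (adjusted p = 0.46). In GKO Mrps16 was at −0.16 (adjusted p = 0.217) and Mrpl52 at −0.29 (adjusted p = 0.00456), so Mrpl52 was called lower in that fit. Against tested genes within 5 Mb, 10 to 179 per member, 61 of 78 members lay below the median of their neighbours in GKO, 51 in DKO, 55 in primed cells and 29 in AKO. Chromosome 17 carried 8 members, of which 7 were lower in GKO and all 8 lay below the chromosome's median of −0.07. The medians of their neighbours were −0.14 to 0.01. In DKO 4 of the 8 were lower, and Mrps34, Mrpl2 and Mrps18b were not.

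**Figure D4:**
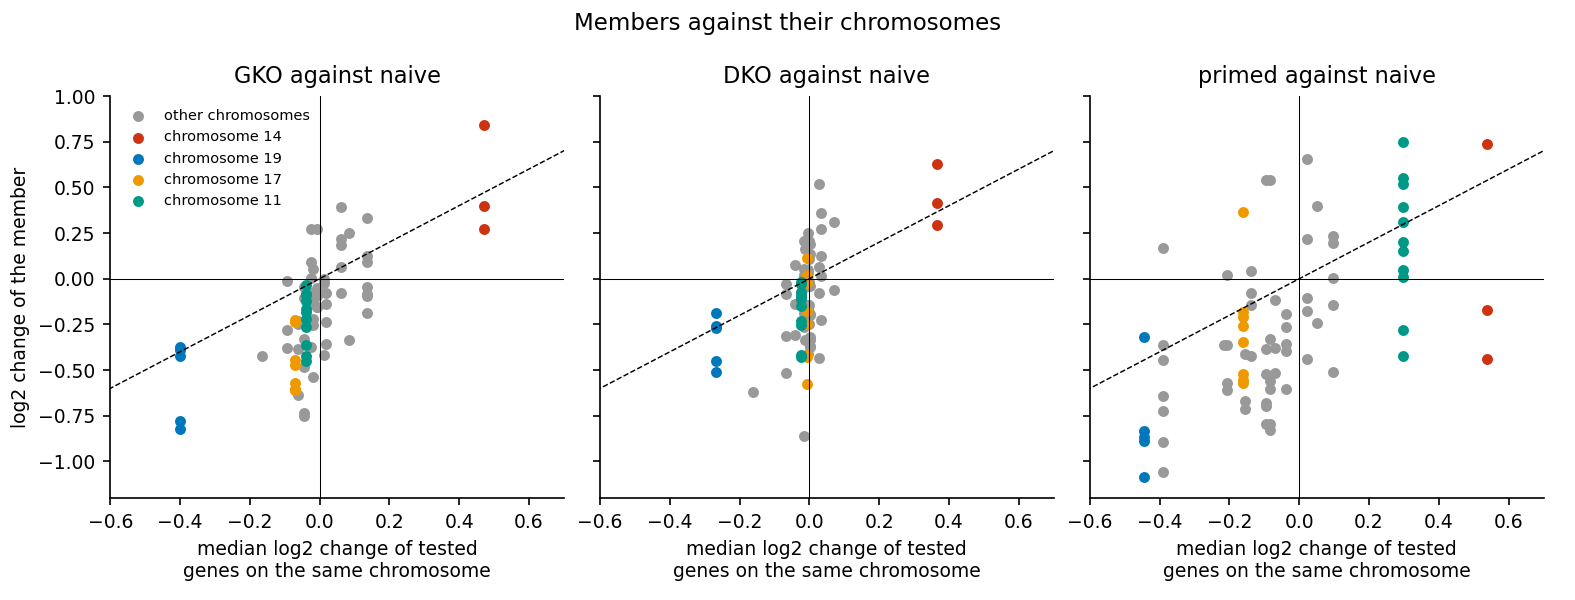
Each point is a member, with the median log2 change of the tested genes on its chromosome on the x axis and its own log2 change on the y axis, for GKO, DKO and primed against naive; the dashed line marks equal values. All 5 members on chromosome 19 are below 0 in the 3 comparisons, the 3 on chromosome 14 are above 0 in GKO and DKO but not all in primed cells, and the 8 on chromosome 17 lie below the line in GKO.

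Mrps35 lies near the end of chromosome 6, and its fall in DKO was shared by its neighbours. Of 30 other tested genes within 5 Mb, 28 were lower in DKO against naive, with a median of −0.95, close to the −0.86 of Mrps35 itself. In GKO against naive 12 were lower and 5 higher (median −0.10), and the AKO median was 0.00. In GKO against DKO 29 of the 30 were higher in GKO. From 7 Mb before the gene to the chromosome's end 29 of 32 genes were below −0.5 in DKO (median −0.93). In the stretch from 20 to 7 Mb before it 2 of 37 were (median 0.00). Primed cells had a median of −0.70 over the same end stretch, with quartiles of −1.12 and 0.49. Over the stretch from 20 to 7 Mb before the gene their median was −0.51. The edge at 7 Mb was chosen after the values were seen. Whether the copy number of the end stretch differed was not tested.

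**Figure D5:**
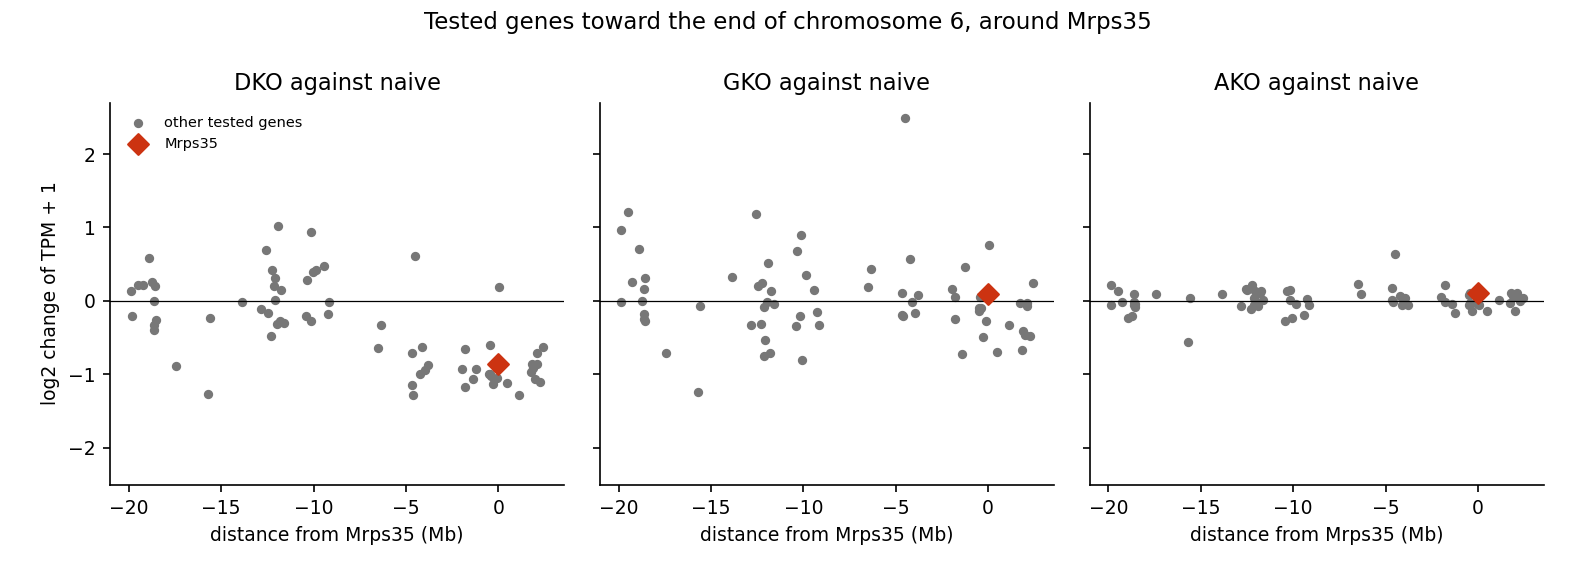
Log2 change of tested genes on chromosome 6 against distance from Mrps35 in Mb, for DKO, GKO and AKO against naive. In DKO the genes from 7 Mb before Mrps35 to the chromosome's end have a median of −0.93, and AKO values are near 0.

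Other genes of mitochondrial translation were taken from lists, whose GKO counts stand beside 27.1% of all genes lower and 24.7% higher. Ribosomal proteins under other names had 2 of 5 lower and 1 higher in GKO, with Dap3, a GTP-binding small-subunit protein, at −0.31 and Chchd1 (chromosome 14) at 0.36. Of 25 assembly and rRNA-modifying factors 13 were lower and 3 higher (median −0.22), led by Rbfa, a small-subunit assembly factor, at −0.78, and Mrm2, which methylates the large rRNA, at −0.56. Mettl17, a small-subunit assembly factor on chromosome 14, rose by 0.62. Of 14 translation factors 6 were lower and 2 higher, with the elongation factor Tufm at −0.48 and, both on chromosome 14, the release factor Mtrf1 at 0.76 and the insertase Oxa1l at 0.61. Of 17 mitochondrial aminoacyl-tRNA synthetases 3 were lower and 2 higher, and of 11 genes of mitochondrial DNA upkeep and transcription 3 were lower and 3 higher, with the helicase Twnk (chromosome 19) at −0.88.

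In primed cells, where 42.5% of all genes were lower and 37.4% higher, 17 of 25 assembly factors were lower and 2 higher (median −0.43). Rbfa fell by 1.36 and Mettl17 rose by 1.44. Of the 5 proteins under other names 4 were lower, among them Ptcd3, which lies at the mRNA entry, at −1.28 and Gadd45gip1 at −1.02, while Chchd1 was at 0.90. Lower were also 7 of 14 translation factors (3 higher), 8 of 17 synthetases (2 higher) and 6 of 11 mitochondrial DNA genes (1 higher), with the transcription factor Tfam at −0.62. The lower shares of the factors (50%) and synthetases (47.1%) were near that of all genes. In DKO the assembly factors had 7 of 25 lower and 3 higher (24.3% and 21.7% of all genes), with Rbfa at −0.79. Of 14 translation factors 8 were lower and 2 higher in DKO (median −0.18). Of 17 synthetases 1 was lower and 3 higher, and of 11 mitochondrial DNA genes 4 were lower and 2 higher. Of the 5 proteins under other names 1 was lower and 0 higher. In AKO no gene of these lists was called.

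The nuclear respiratory chain and cytosolic ribosome were set beside the members. Of 99 respiratory chain and ATP synthase genes 50 were lower and 5 higher in GKO (median −0.18), 31 and 7 in DKO (−0.12), and 68 and 12 in primed cells (−0.40). These medians were near those of the members (−0.17, −0.11 and −0.35). Of 87 cytosolic ribosomal protein genes 34 were lower and 4 higher in GKO (median −0.20), 16 and 5 in DKO (−0.04), and 48 and 15 in primed cells (−0.24). Many cytosolic ribosomal protein genes have processed pseudogenes that can share reads, so their values are less certain. None of these lists was tested against another.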

How the data were processed

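Bulk RNA-seq of 10 libraries of mouse J1 embryonic stem cells, 2 in each of 5 lines, was analysed from 1 table per library, and groups were taken from the genotype and title labels. The values were deposited as TPM, which the authors computed with RSEM 1.3.3 after trimming and alignment with STAR. The labels name Trim Galore 0.6.6, STAR 2.7.9a and GRCm38 (with GRCh38), whereas the study's methods name another mouse build and library kit and, beside that STAR version, an earlier one. Which applied to these files could not be settled. The deposited TPM tables list 21853 protein-coding genes, which sum to less than the full TPM total. The depth of the libraries is unknown, so no counting interval was given.

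Genes at 1 TPM or more in at least 2 libraries (12060) were tested as log2(TPM + 1) with limma 3.58.1 (R 4.3.3), with an intensity trend and a mean per line in 1 fit of all libraries. The p-values were adjusted by Benjamini-Hochberg over all tested genes and called under 0.05. With 2 libraries per line an exact two-sided permutation test cannot go below p = 0.333. The fit was tested on simulated data of 12060 genes for GKO against naive, where 131 of 200 changes of 0.5 and 187 of 200 changes of 1 (log2) were called. Only these 200 genes were changed in the simulation, whereas 51.7% of genes were called in the data. The adjustment therefore acted differently, and these counts do not give the sensitivity in the data.

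The members and all gene lists were chosen with earlier results of these data known. Members were described by counts beside all tested genes, with no set test. Named genes were the called members with the largest changes that were at 5 TPM or more in the higher line and did not overlap between lines (8 in each direction for GKO and primed against naive, 5 for DKO against naive, GKO against DKO and DKO against AKO, 3 for the interaction). Mrps18a, Mrps18b, Mrps18c, Mrpl12, Mrpl58, Mrps36, Mrps30 and the 5 highest and 5 lowest members in naive cells were always named. Up to 4 genes of each other list were eligible. S6 kinases and Rps19bp1, which match the symbol pattern of cytosolic ribosomal proteins, were left out of that list. Centring within chromosomes used chromosomes with 100 or more tested genes. Gene positions for distances came from the GENCODE annotation of GRCm39 by gene symbol, and promoter coordinates are GRCm38.p6. Alternatives were another pseudocount (0.1), other filters (none, or a mean of 5 TPM), quantile, median-ratio and equal-sum scaling, centring within chromosomes, no trend, a replicate block, only the lines compared, a minimum change and leaving out each library.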

Additional observations from a re-analysis of the deposited data

Results flagged for a closer look

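The change that went with the GYS1 KO label differed between the 2 AMPK genotypes for 12 members, by the limma interaction term (GKO against naive minus DKO against AKO, log2, adjusted p under 0.05). This is 15.4% of members, beside 25.8% of all tested genes. The values were −0.96 for Mrpl17, −0.79 for Mrps34, −0.64 for Mrpl2, −0.59 for Mrpl41, −0.51 for Mrps18b, −0.51 for Mrps12, −0.49 for Mrpl24 and −0.41 for Mrpl49. They were 0.23 for Mrpl13, 0.29 for Mrps30, 0.32 for Mrpl3 and 1.05 for Mrps35. Mrpl41 was at 24.9 and 25.2 TPM in GKO, near the naive 25.7 and 27.4, and at 36.5 and 40.7 in DKO against 27 and 26.5 in AKO libraries, so its term came from the rise in DKO. Mrps35 lies in the stretch of chromosome 6 whose genes were lower in DKO as a whole. The part of clone differences, and of the lower Prkaa1 RNA in DKO than in AKO, in these terms was not tested.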

How the results depend on the processing

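Of 68 named changes, 52 kept direction and call under every one of the 20 settings tried for them. Requiring an absolute log2 change of at least 0.5 left 11 of 47 members called in GKO against naive, 7 of 42 in DKO against naive, 33 of 65 in primed against naive, 5 of 27 in GKO against DKO, 5 of 34 in DKO against AKO and 7 of 12 in the interaction. With only the libraries of the lines compared, the interaction was called for 22. Leaving out 1 library gave 33 to 50 members in GKO, 26 to 44 in DKO, 0 to 0 in AKO and 54 to 67 in primed against naive, 15 to 34 in GKO against DKO, 25 to 44 in DKO against AKO and 8 to 22 in the interaction. With a replicate block the counts were 45, 40, 0, 65, 24, 34 and 12 in that order. Same-numbered libraries did not deviate together (correlations from −0.13 to 0.08), so the numbers do not pair them.

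Splits into lower and higher calls that moved under quantile normalization were 22 and 12 in DKO against naive, 40 and 20 in primed against naive, 19 and 9 in GKO against DKO and 8 and 6 in the interaction. Centring within chromosomes gave 27 lower and 4 higher in DKO against AKO and 11 and 3 in the interaction. It turned the sign of Mrpl52 in DKO (−0.17) and GKO (−0.29), of Mrps16 in DKO (−0.0477), in GKO (−0.16) and in DKO against AKO (−0.0906), and of Mrpl57 in DKO against AKO (−0.0193). It subtracted 0.46 to 0.56 on chromosome 14 there. Minus the chromosome's median change instead, Mrps16 in DKO and in DKO against AKO (0.05 and 0.04) and Mrpl57 in DKO against AKO (0.12) stayed above 0. The interaction median became 0.004. The AKO median, at 0.00, turned to −0.0145 with equal sums and ran from −0.012 to 0.0077 when 1 library was left out (−0.0002 and −0.0063 without naive replicates 1 and 2). The data hold TPM without counts, so what depth limits for low members such as Mrpl57 and Mrps35 is unknown, and with 2 libraries per line the spread is borrowed from all lines.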
